A study of Homo sapiens with 34 samples.

Results

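The 10 genes of fatty acid oxidation and its control studied here were chosen by symbol and followed from human embryonic stem cells (ESCs) to cardiomyocytes (CMs). They were CPT1A, CPT1B, CPT2, ACADVL, HADHA, FABP3, CD36, PPARA, PPARGC1A and ESRRG, that is 10 of the 23189 genes with a row in the table of raw read counts. All 10 had a row, and where a gene had several RefSeq transcript rows, the row with the largest total count was taken.

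The cells were H1, an established human ESC line, and total RNA was sequenced at days 0, 2, 6 and 10 of differentiation along the cardiac lineage. The control line, called WT, held an empty lentiviral vector or one with an shRNA to GFP. In the other lines the lentiviral shRNA targeted NKX2-5, ZEB2 or ZNF503, each a gene for a transcription factor. Every line was selected with puromycin, and 1 vector was kept for each targeted gene, so an effect of the target and an effect of that vector cannot be told apart. All differentiating cells, WT included, were kept in a medium without FGF2 and TGFβ and with a lipid concentrate. It also lacked insulin until day 7. They received the GSK3β inhibitor CHIR99021 on the first day, the Wnt inhibitor IWP2 from day 2 and insulin at day 7. Cells were grown in full stem cell medium before differentiation, and only the day 10 libraries came after the insulin. Effects of day and of medium thus cannot be told apart. The groups compared were thus WT, NKX2-5 shRNA, ZEB2 shRNA and ZNF503 shRNA cells at days 0, 2 and 6, and WT, NKX2-5 shRNA and ZEB2 shRNA cells at day 10. Each of these 15 groups held 2 libraries, which the series describes as biological replicates. Of the ZNF503 knockdown, no day 10 sample was analysed here.

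Fatty acids enter cells partly through the transporter CD36 and are carried in the cytosol by fatty acid binding proteins, of which FABP3 is the heart and muscle form. In mitochondria, CPT1 at the outer membrane and CPT2 at the inner membrane pass long-chain acyl groups across on carnitine, and the β-oxidation enzymes then shorten them to acetyl-CoA. CPT1A is the form of liver and many other tissues and CPT1B that of muscle and heart. The nuclear receptors PPARA and ESRRG and the coactivator PPARGC1A (PGC-1α) drive genes of this pathway, on which the adult heart relies for most of its fuel.

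In GRCh37 coordinates, the transport genes lay at chr7:79998891-80308593 (CD36, plus strand) and chr1:31838100-31849697 (FABP3, minus strand). The carnitine shuttle genes lay at chr11:68522088-68611878 (CPT1A, minus strand), chr22:51007290-51016894 (CPT1B, minus strand) and chr1:53662464-53679869 (CPT2, plus strand). The enzyme genes lay at chr17:7120444-7128585 (ACADVL, plus strand) and chr2:26413504-26467540 (HADHA, minus strand). The regulators lay at chr22:46546424-46639652 (PPARA, plus strand), chr4:23756664-23905712 (PPARGC1A, minus strand) and chr1:216676588-217311097 (ESRRG, minus strand). CPT1B lies within the read-through gene CHKB-CPT1B on the same strand, so its reads could not be assigned with certainty, and PPARA overlaps an unnamed gene of its own strand (ENSG00000280384). CPT2, ACADVL, HADHA, CD36 and PPARGC1A overlap genes of the opposite strand. The library kit keeps strand, but the strand setting of the counting was not given in the sources used here, so reads of such partners could not be told apart.

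The 250 bases upstream of a transcription start are given here for 3 genes. FABP3 and PPARGC1A were chosen because their levels moved together, as given further on, and the ESRRG window is the only one of the members' windows that held a searched motif of this pathway. Sequences are from RefSeq on GRCh38.p14, read 5′ to 3′ on the minus strand at chr1:31373077-31373326 for FABP3, chr4:23881102-23881351 for 1 of 2 starts of PPARGC1A, and chr1:217076993-217077242 for 1 of 8 starts of ESRRG. Capitals mark a match to AAGGTCA, the core of the extended half-site bound by estrogen-related receptors. The bases that extend this core were not part of the search.
FABP3: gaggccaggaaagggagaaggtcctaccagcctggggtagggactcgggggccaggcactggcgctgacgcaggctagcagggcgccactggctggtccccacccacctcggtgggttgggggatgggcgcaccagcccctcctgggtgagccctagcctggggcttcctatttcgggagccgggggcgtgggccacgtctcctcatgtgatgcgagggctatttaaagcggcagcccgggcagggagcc
PPARGC1A: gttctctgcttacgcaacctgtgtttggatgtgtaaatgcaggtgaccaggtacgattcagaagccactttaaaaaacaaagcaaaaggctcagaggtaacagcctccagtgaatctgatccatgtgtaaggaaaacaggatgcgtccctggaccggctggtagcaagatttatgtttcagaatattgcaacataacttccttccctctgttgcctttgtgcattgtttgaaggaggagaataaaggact
ESRRG: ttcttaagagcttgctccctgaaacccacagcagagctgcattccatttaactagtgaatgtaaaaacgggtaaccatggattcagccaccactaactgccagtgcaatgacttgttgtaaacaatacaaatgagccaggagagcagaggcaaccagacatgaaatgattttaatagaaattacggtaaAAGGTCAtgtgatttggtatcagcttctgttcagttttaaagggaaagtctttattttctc
RefSeq gave 24 windows for 9 of the 10 genes and none for CPT1B. AAGGTCA on either strand was in 1 of the 24 windows, 61 bases before an ESRRG start, against 3.44% of 35116 windows of all genes. The direct repeat bound by PPAR with its partner RXR, AGGTCA written 2 times with 1 base between, was in 0 of the 24 and in 0.0171% of all windows. TATAAA and CACGTG were in 10.7% and 6.34% of all windows and in neither the FABP3 nor the PPARGC1A sequence above. CACGTG was in the window of the other PPARGC1A start, 123 bases before it, and TATAAA in 1 window of ACADVL and 2 of CD36. A match describes letters and not a bound site.

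Library totals ranged from 9189943 to 90814577 counts and were lowest at day 10, from 9189943 to 29549874. In 4 further day 10 libraries, replicates 1 and 2 of the WT and ZEB2 shRNA groups, rows and gene names were out of step (Spearman correlation with replicate 3 from 0.1126 to 0.1224), and they were not used. NKX2-5 in NKX2-5 shRNA cells stood at 1.27% of WT at day 6 and 1.38% at day 10, and ZNF503 in ZNF503 shRNA cells at 7.0% at day 6, where NKX2-5 was also lower (3.65% of WT, adjusted p = 7.1e-08). At day 6, ZNF503 stood at 8.52% of WT in NKX2-5 shRNA cells, and ZEB2 at 21.4% in NKX2-5 shRNA and 12.4% in ZNF503 shRNA cells (adjusted p = 4.4e-07, 4.7e-08 and 8.0e-09). ZEB2 in ZEB2 shRNA cells stood at 58.7% of WT at day 6 (adjusted p = 0.00136), and at 64.4% at day 2 and 49.2% at day 10 with adjusted p = 0.185 and 0.0793. In NKX2-5 shRNA cells ZEB2 already stood at 24.5% of WT at day 2 (edgeR adjusted p = 9.4e-06). ZNF503 in ZNF503 shRNA cells stood at 85.1% of WT at day 2 (edgeR adjusted p = 0.714). It was low in WT cells that day (1.09 and 1.96 CPM), and no knockdown was seen. The 8 cardiomyocyte markers summed to between 10200 and 13100 CPM (read counts scaled to a common library size) in WT cells at day 6 and 16900 and 20200 at day 10. They summed to between 4710 and 6710 in ZEB2 shRNA cells over both days, to 228 and 302 in ZNF503 shRNA cells at day 6, and to between 58.2 and 442 in NKX2-5 shRNA cells over both days. The 8 hepatic markers summed to 2170 and 5570 CPM in WT cells at day 10, against 41200 and 53000 in NKX2-5 shRNA and 11000 and 12900 in ZEB2 shRNA cells. These marker sums moved with many of the results below, and their part in them was not tested. In such bulk samples, fewer cells of a type and less RNA per cell cannot be told apart.

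The first question was how the genes changed as WT cells became CMs. Transport, the muscle carnitine transferase, ACADVL and all 3 regulators ended higher than they began, CPT1A fell and came back, and CPT2 showed no call. At 5% FDR, 7 of the 10 genes were called at day 2 against day 0 (4 higher, 3 lower), where 44.1% of all genes tested were (20.9% higher, 23.1% lower). At day 6 there were 8 (7 higher, 1 lower) against 60.9% (31.3% higher, 29.6% lower), and at day 10 there were 9 (8 higher, 1 lower) against 73.8% (39.1% higher, 34.7% lower). From day 6 to day 10, 9 rose and 0 fell, where 57.5% of all genes were called (28.2% higher, 29.2% lower). Without TMM scaling, 59.9% of the calls of all genes at day 2 were higher, against 47.5% with it, and HADHA was called higher (log2 0.36). With the fold thresholds the study used, 1, 4 and 5 genes were called at days 2, 6 and 10 against day 0, where 8.36%, 10.2% and 15.5% of all genes were, and 1 from day 6 to day 10, against 3.94%. The median log2 fold change of the 10 genes was 2.04 at day 6 and 3.19 at day 10, and that of all genes tested was 0.03 and 0.10.

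**Figure D1:**
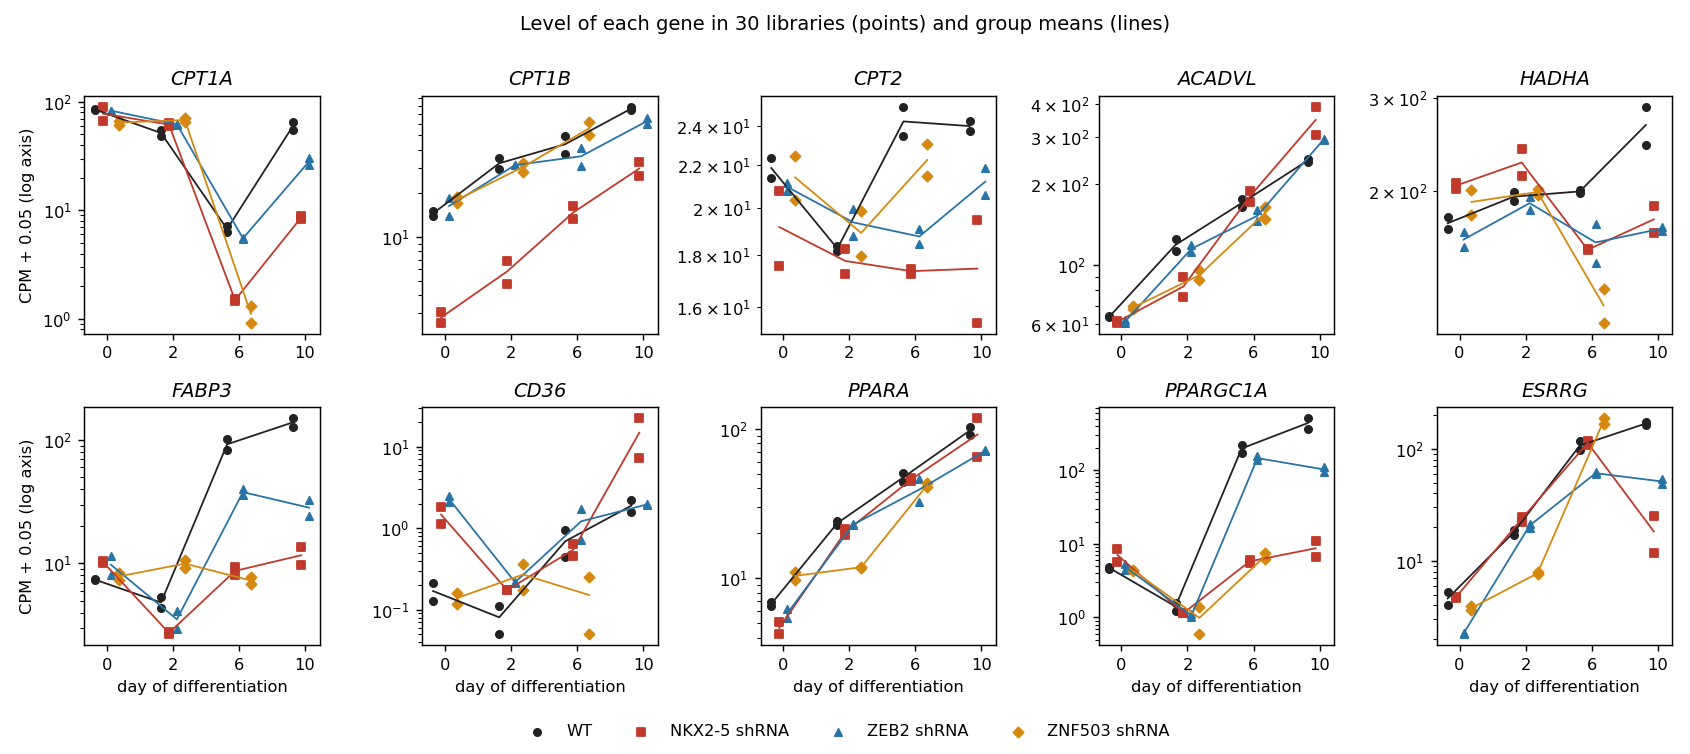
CPM plus 0.05 (log axis, scaled separately for each gene) by day for the 10 genes. Points are libraries and lines join group means of 2 libraries. FABP3 and PPARGC1A climb in WT cells at days 6 and 10, reach intermediate levels in ZEB2 shRNA cells and stay at no more than 13.6 and 10.8 CPM in NKX2-5 shRNA cells.

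FABP3, the fatty acid carrier of heart muscle, read 7.31 and 7.38 CPM in the WT libraries at day 0, 4.28 and 5.27 at day 2, 102 and 82.2 at day 6, and 150 and 128 at day 10. The groups of days 0 and 2 did not overlap those of days 6 and 10. Its log2 fold change from day 0 was 3.68 ± 0.16 (SE, n = 2 per group) at day 6 and 4.30 ± 0.16 at day 10, with adjusted p of 3.2e-08 and 8.6e-09 from edgeR's quasi-likelihood test. CD36, the membrane transporter, stayed near the detection limit, with 6 and 3 reads at day 0, 0 and 1 at day 2, 9 and 37 at day 6, and 42 and 14 at day 10. These were at most 2.16 CPM, and a library at 0 reads at day 2 allows up to 0.1061 CPM (3 counts). The rise of CD36 to day 10 was called (log2 3.98 ± 0.70, adjusted p = 0.00048). Its rise to day 6 (adjusted p = 0.0127) was not called without WT day 0 replicate 2 or WT day 6 replicate 2, and its rise from day 6 to day 10 was not called without any 1 of those 4 libraries. The lower FABP3 level at day 2 (log2 -0.60 ± 0.17, adjusted p = 0.0183) was not called without WT day 0 replicate 1 or 2 or WT day 2 replicate 1.

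In the carnitine shuttle, CPT1A read 86.2 and 83.7 CPM at day 0, 54.9 and 48.2 at day 2, 7.11 and 6.23 at day 6, and 65.5 and 55.0 at day 10. It was thus lowest at day 6, where it had fallen (log2 -3.65 ± 0.14, adjusted p = 1.4e-08), and it rose by 3.22 ± 0.14 from day 6 to day 10 (adjusted p = 3.1e-07). Its lower level at day 10 than at day 0 was not called without WT day 0 replicate 1. CPT1B went the other way from the outset, with 14 and 15 CPM at day 0, 29.4 and 34.8 at day 2, 37.4 and 49.6 at day 6, and 74.5 and 78.5 at day 10. Each later day lay above day 0 in both libraries, and day 10 was higher by 2.46 ± 0.16 (adjusted p = 3.2e-07). CPT2, the inner membrane partner of both, lay between 18.1 and 25 CPM over the 8 WT libraries, and its log2 change at day 10 was 0.19 ± 0.14 (adjusted p = 0.222).

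Per kilobase of transcript, the CPT1B row made up 24.7% and 26.5% of the CPT1A and CPT1B signal in WT cells at day 0, 51.9% and 59.2% at day 2, 91.4% and 94.1% at day 6, and 69.6% and 74.2% at day 10. The muscle form passed the liver form by day 2, and its share at day 10 was below that at day 6 as CPT1A had risen again. These shares rest on 1 RefSeq row a gene, and CPT1B carries the read-through limit given above.

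**Figure D2:**
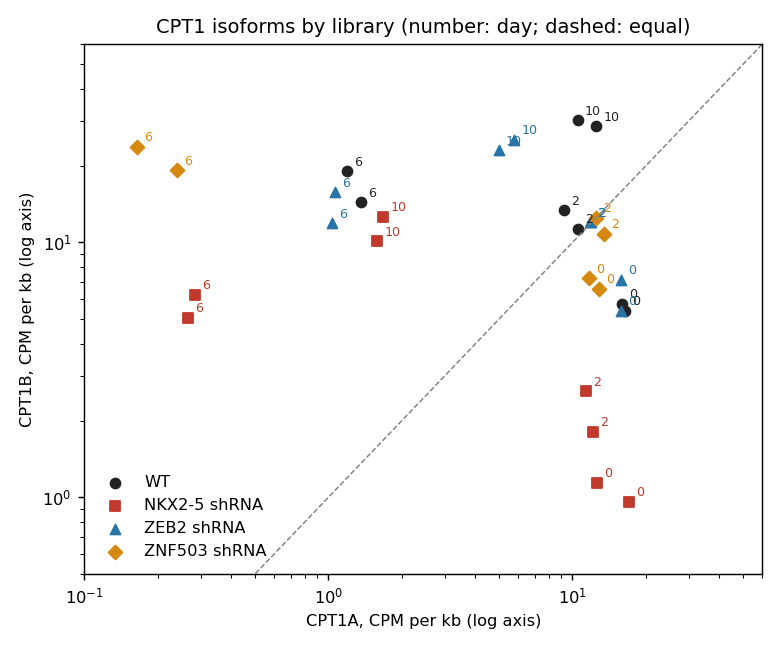
CPM per kilobase of transcript for CPT1A (horizontal, log axis) and CPT1B (vertical, log axis) in the 30 libraries, each marked with its day, and the dashed line marks equal levels. Day 6 libraries of every line lie far to the left, at no more than 1.36 for CPT1A, and the NKX2-5 shRNA libraries lie below the other lines of the same day.

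Of the mitochondrial enzymes, ACADVL, the very long chain acyl-CoA dehydrogenase that opens the spiral, read 64.1 and 63.4 CPM at day 0, 112 and 125 at day 2, 164 and 176 at day 6, and 249 and 242 at day 10. It rose at each step with no overlap between days, by 2.00 ± 0.10 in all (adjusted p = 5.7e-08). HADHA, the α subunit of the trifunctional protein, read 169 and 178 CPM at day 0, 199 and 191 at day 2, 198 and 201 at day 6, and 289 and 245 at day 10. Its day 10 libraries were the highest, 0.68 ± 0.10 above day 0 (adjusted p = 0.000138), and the smaller differences at days 2 and 6 were not called (adjusted p = 0.108 and 0.0669).

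Among the regulators, PPARGC1A and ESRRG had the largest rises of the 10 genes at days 6 and 10. PPARGC1A read 4.56 and 4.71 CPM at day 0, 1.19 and 1.53 at day 2, 220 and 173 at day 6, and 507 and 363 at day 10. It first fell (log2 -1.77 ± 0.27, adjusted p = 0.000512) and then rose to 6.61 ± 0.22 above day 0 (adjusted p = 3e-09). ESRRG read 3.95 and 5.18 CPM at day 0, 18.9 and 17.0 at day 2, 117 and 97.1 at day 6, and 165 and 172 at day 10. PPARA read 6.51 and 6.85 CPM at day 0, 22.5 and 24.2 at day 2, 50.6 and 44.2 at day 6, and 91.4 and 103 at day 10. Both receptors were already higher at day 2, by 2.02 ± 0.16 for ESRRG (adjusted p = 8.5e-06) and 1.85 ± 0.14 for PPARA (adjusted p = 5.2e-06), and each later day lay above the one before.

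**Figure D3:**
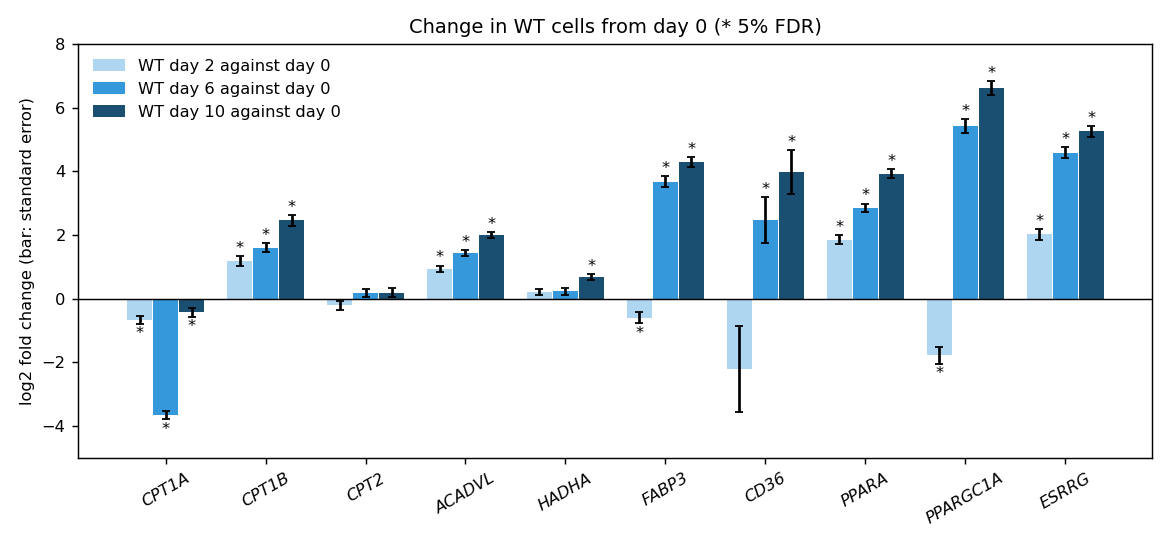
Log2 fold change of each gene in WT cells at days 2, 6 and 10 against day 0, with the standard error as a bar and an asterisk at 5% FDR (2 libraries per group). PPARGC1A, ESRRG and FABP3 reach 6.61, 5.26 and 4.30 at day 10, CPT1A dips to -3.65 at day 6, and the bars of CPT2 stay within 0.21 of zero.

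On a scale of CPM per kilobase, HADHA (58.9) and ACADVL (29.2) led in WT cells at day 0, followed by CPT1A (16.2), CPT2 (8.08), FABP3 (6.70) and CPT1B (5.57), with the regulators at 0.879 (ESRRG), 0.737 (PPARGC1A) and 0.66 (PPARA) and CD36 at 0.0259. At day 10 the order was FABP3 (127), ACADVL (112), HADHA (90.8), PPARGC1A (69.2), ESRRG (32.4), CPT1B (29.4), CPT1A (11.5), PPARA (9.59), CPT2 (8.87) and CD36 (0.399). Neighbours such as FABP3 and ACADVL, or ESRRG and CPT1B, were not tested against each other.

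The second question was which of these changes the 3 knockdowns altered. Some of the 10 genes differed from WT before differentiation. At day 0, 2 of the 10 genes were called in NKX2-5 shRNA cells, where 15.9% of all genes were, 2 in ZEB2 shRNA cells, where 3.93% were, and 1 in ZNF503 shRNA cells, where 7.53% were. The study's thresholds gave 2, 2 and 0 genes, against 4.03%, 2.2% and 2.56% of all genes. In NKX2-5 shRNA cells 51.8% of all calls were higher than WT, and 40.5% without TMM scaling. CD36 had 69 and 59 reads in NKX2-5 shRNA and 216 and 135 in ZEB2 shRNA cells, against 6 and 3 in WT and 3 and 8 in ZNF503 shRNA cells. The former libraries held 1.06 to 2.42 CPM and did not overlap the latter, with a log2 difference from WT of 3.51 ± 0.50 in NKX2-5 shRNA (adjusted p = 0.00114) and 4.18 ± 0.48 in ZEB2 shRNA cells (adjusted p = 0.000516). ESRRG was lower in ZEB2 shRNA cells, at 2.23 and 2.16 CPM (log2 -1.08 ± 0.21, adjusted p = 0.0143), a call lost on leaving out ZEB2 shRNA day 0 replicate 1 or 2 or WT day 0 replicate 2. PPARA was higher in ZNF503 shRNA cells, at 9.62 and 11.0 CPM (log2 0.62 ± 0.17, adjusted p = 0.0498), a call lost without any 1 of the 4 libraries.

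CPT1B was low in NKX2-5 shRNA cells on every day. It read 2.98 and 2.51 CPM at day 0, 6.80 and 4.70 at day 2, 13.2 and 16.2 at day 6, and 32.8 and 26.3 at day 10, below both WT libraries of the day each time. The log2 differences from WT were -2.43 ± 0.18 at day 0, -2.48 ± 0.16 at day 2, -1.57 ± 0.19 at day 6 and -1.37 ± 0.20 at day 10, with adjusted p of 1.9e-05, 5.8e-07, 2.3e-05 and 0.00208. NKX2-5 itself rose by 7.74 ± 0.42 on the log2 scale from day 0 to day 6 in WT cells (adjusted p = 1.6e-07). Its own difference from WT at day 0 was -1.22 ± 0.79 and was not called (adjusted p = 0.323). It rested on 5 and 8 reads against 8 and 16 in WT, too few to tell whether NKX2-5 was lower. CHKB, the choline kinase gene upstream at the same locus, gave 0.12, 0.04, 0.55 and -0.01 at the same days, and the read-through CHKB-CPT1B gave -0.34, -0.56, -0.27 and -0.63. By edgeR, CHKB was called at day 6 (adjusted p = 0.00621) and the read-through at days 0, 2 and 10 (adjusted p = 0.0496, 0.000927 and 0.0244). The read-through row is no separate measure, since it largely recounts reads of both genes. In WT day 0 replicate 1 it held 1519 counts, CHKB 1082 and CPT1B 526. CPT1B in ZEB2 and ZNF503 shRNA cells lay within 0.35 of WT on the log2 scale at each day, and none of those differences was called. Without WT day 6 replicate 2, CPT1B was called higher in ZNF503 shRNA cells at day 6 (log2 0.56, adjusted p = 0.0441).

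At day 2, 3 of 9 genes tested were lower in NKX2-5 shRNA cells (CPT1B, ACADVL and FABP3), where 26.7% of all genes were called (13% higher, 13.6% lower), and CD36 was too low to test in any line. Without TMM scaling 25.8% of those calls were higher than WT, against 48.9% with it. In ZNF503 shRNA cells 5 of 9 were called, against 26.9% of all genes (13.1% higher, 13.8% lower), with CPT1A and FABP3 higher and ACADVL, PPARA and ESRRG lower. ZNF503 itself was not called lower in these cells at day 2, as given above. ESRRG read 7.88 and 7.51 CPM there against 18.9 and 17.0 in WT (log2 -1.28 ± 0.14, adjusted p = 9.2e-06), and PPARA 11.7 and 11.9 against 22.5 and 24.2 (log2 -1.04 ± 0.13, adjusted p = 5.2e-05). Both receptors thus lay between the WT levels of day 0 and day 2. FABP3 read 10.7 and 9.13 CPM against 4.28 and 5.27 in WT, a difference of 1.02 ± 0.22 (adjusted p = 0.00321) that was not called without WT day 2 replicate 1. Without WT day 2 replicate 2, the calls of CPT1A and ACADVL in ZNF503 shRNA cells and of FABP3 in NKX2-5 shRNA cells were lost. CPT1A was also not called without ZNF503 shRNA replicate 2, ACADVL without ZNF503 shRNA replicate 1 and FABP3 without NKX2-5 shRNA replicate 1. For ZEB2 shRNA, 0 of 9 were called by edgeR, against 0.49% of all genes (0.206% higher, 0.284% lower), 1 had an unadjusted p under 0.05, and DESeq2 also called 0. The study's thresholds gave 1, 0 and 0 genes in NKX2-5, ZEB2 and ZNF503 shRNA cells, against 1.19%, 0.133% and 2.8% of all genes.

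**Figure D4:**
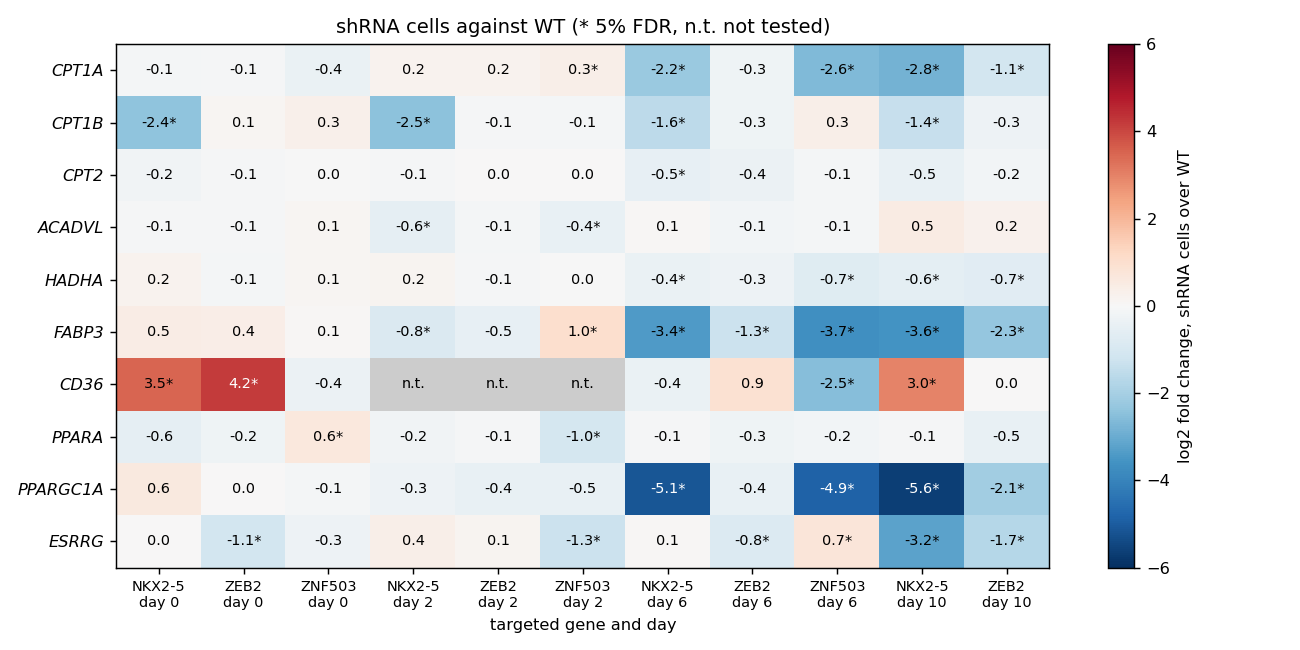
Log2 fold change over WT for the 10 genes (rows) in each knockdown and day (columns, 2 libraries per group), coloured from blue (lower) to red (higher), with an asterisk at 5% FDR and n.t. where a gene was too low to test. FABP3 is called lower in every column of days 6 and 10, and PPARGC1A in 4 of those 5 columns.

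At day 6, FABP3, PPARGC1A and CPT1A were far below WT in NKX2-5 and ZNF503 shRNA cells, while PPARA and ACADVL showed no call in any line. In NKX2-5 shRNA cells 6 of the 10 genes were lower and 0 higher, where 49.1% of all genes were called (24.4% higher, 24.7% lower). In ZNF503 shRNA cells 5 were lower and 1 higher, against 55.7% (27.2% higher, 28.5% lower), and in ZEB2 shRNA cells 2 were lower and 0 higher, against 11.0% (5.67% higher, 5.33% lower). The study's thresholds, which ask for an 8-fold change, gave 2 genes in each of NKX2-5 and ZNF503 shRNA cells, FABP3 and PPARGC1A both times, against 4.71% and 3.91% of all genes, and 0 in ZEB2 shRNA cells, against 0.462%. The median log2 change of the 10 genes was -0.45, -0.45 and -0.30, and that of all genes -0.00, -0.03 and 0.01.

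FABP3 read 8.01 and 9.29 CPM in NKX2-5 shRNA, 7.68 and 6.77 in ZNF503 shRNA and 39.9 and 35.6 in ZEB2 shRNA cells at day 6, against 102 and 82.2 in WT. The first pair of lines stood near the WT level of day 0 and ZEB2 shRNA cells in between, with no overlap with WT. The log2 differences were -3.41 ± 0.17 (adjusted p = 1.1e-08), -3.68 ± 0.17 (adjusted p = 1.1e-08) and -1.28 ± 0.15 (adjusted p = 0.00016). PPARGC1A read 5.92 and 5.49 CPM in NKX2-5 shRNA and 6.16 and 7.42 in ZNF503 shRNA cells, against 220 and 173 in WT, differences of -5.12 ± 0.17 (adjusted p = 6.1e-10) and -4.86 ± 0.17 (adjusted p = 1.3e-09). In ZEB2 shRNA cells it read 155 and 136 CPM, and the difference of -0.43 ± 0.14 was not called (adjusted p = 0.0653), but was by DESeq2 (adjusted p = 0.0452), with no filter on low counts and without WT day 6 replicate 2.

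CPT1A, at its low point in all lines, read 1.40 and 1.48 CPM in NKX2-5 shRNA and 0.865 and 1.26 in ZNF503 shRNA cells at day 6, from 17 to 74 reads, against 7.11 and 6.23 in WT and 5.56 and 5.38 in ZEB2 shRNA cells. The log2 difference was -2.21 ± 0.27 in NKX2-5 shRNA (adjusted p = 2.5e-05) and -2.63 ± 0.29 in ZNF503 shRNA cells (adjusted p = 1.2e-05). CPT1B read 61.7 and 50 CPM in ZNF503 shRNA cells against 37.4 and 49.6 in WT, and the CPT1B share per kilobase was 99.3% and 98.8% there, the highest of the 15 groups. HADHA was lower in ZNF503 shRNA cells (log2 -0.73 ± 0.12, 112 and 130 CPM against 198 and 201, adjusted p = 0.000298). In NKX2-5 shRNA cells HADHA and CPT2 were lower (log2 -0.38 and -0.49, adjusted p = 0.0186 and 0.0122), and HADHA lost its call without any 1 of the 4 libraries and CPT2 without any 1 of 3 of them. The call of CD36 in ZNF503 shRNA cells rested on 0 and 5 reads against 9 and 37 in WT, and was lost without ZNF503 shRNA replicate 1 or WT replicate 2. Its log2 difference of -2.55 ranged from -7.51 to -1.72 on leaving out 1 library.

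ESRRG did not follow PPARGC1A at day 6. It read 117 and 109 CPM in NKX2-5 shRNA and 168 and 188 in ZNF503 shRNA cells, against 117 and 97.1 in WT and 61.5 and 59.7 in ZEB2 shRNA cells. ZNF503 shRNA cells were thus the highest, by 0.72 ± 0.12 over WT (adjusted p = 0.000325), NKX2-5 shRNA cells overlapped WT (0.07 ± 0.12, adjusted p = 0.657), and ZEB2 shRNA cells were lower (-0.82 ± 0.12, adjusted p = 0.0009). PPARA read between 32.3 and 50.6 CPM in all 8 libraries of day 6, and ACADVL between 145 and 188.

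At day 10, 7 of the 10 genes were called in NKX2-5 shRNA cells (6 lower, 1 higher), where 43.9% of all genes were (23.3% higher, 20.6% lower). In ZEB2 shRNA cells 5 were called, each of them lower, against 18.2% (10.6% higher, 7.67% lower). Without TMM scaling, 73.3% of the calls of all genes in ZEB2 shRNA cells were higher, against 57.9% with it, and HADHA was not called. The study's thresholds gave 3 genes in NKX2-5 shRNA cells (FABP3, PPARGC1A and ESRRG), against 7.31% of all genes, and 0 in ZEB2 shRNA cells, against 1.46%. The median log2 change was -0.98 and -0.56, against 0.03 and 0.03 for all genes. FABP3 read 9.59 and 13.6 CPM in NKX2-5 shRNA and 32.4 and 24.1 in ZEB2 shRNA cells, against 150 and 128 in WT, differences of -3.58 ± 0.27 (adjusted p = 0.000228) and -2.31 ± 0.25 (adjusted p = 0.00282). PPARGC1A read 10.8 and 6.47 CPM in NKX2-5 shRNA and 111 and 93.3 in ZEB2 shRNA cells, against 507 and 363 in WT, differences of -5.64 ± 0.35 (adjusted p = 0.000165) and -2.10 ± 0.30 (adjusted p = 0.00552). For both genes the order was WT, ZEB2 shRNA and NKX2-5 shRNA, with no overlap.

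ESRRG, still at the WT level in NKX2-5 shRNA cells at day 6, read 24.9 and 11.6 CPM there at day 10 and 48.9 and 53.4 in ZEB2 shRNA cells, against 165 and 172 in WT. The log2 differences were -3.19 ± 0.36 (adjusted p = 0.000802) and -1.73 ± 0.34 (adjusted p = 0.0153). CPT1A read 8.78 and 8.27 CPM in NKX2-5 shRNA and 30.2 and 26.1 in ZEB2 shRNA cells against 65.5 and 55.0 in WT, that is -2.82 ± 0.22 (adjusted p = 0.000263) and -1.10 ± 0.21 (adjusted p = 0.013). HADHA read 187 and 166, 168 and 171, and 289 and 245 CPM in the same order (adjusted p = 0.0367 and 0.0477), and its call in NKX2-5 shRNA cells was lost without NKX2-5 shRNA replicate 2 or WT replicate 3 or 4. The counts depended on single libraries in ZEB2 shRNA cells, where 1 or 2 genes were called on leaving out ZEB2 shRNA or WT replicate 3 or 4. CPT1A, HADHA and ESRRG then lost their call in each case, at log2 differences of -0.97 to -1.21, -0.54 to -0.77 and -1.66 to -1.78. PPARGC1A also lost its call without ZEB2 shRNA replicate 3 (log2 -2.22, adjusted p = 0.0519) or 4 (log2 -1.97, adjusted p = 0.0683).

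By edgeR, CD36 was the only one of the 10 genes called higher than WT at day 10, and only in NKX2-5 shRNA cells. It had 466 and 153 reads there (22.2 and 7.23 CPM), against 42 and 14 in WT and 62 and 44 in ZEB2 shRNA cells (1.92 and 1.88 CPM). The difference from WT was 2.99 ± 0.59 (adjusted p = 0.00631) and was not called without WT day 10 replicate 4. CD36 is also known from platelets, macrophages and endothelium. In the same NKX2-5 shRNA libraries, in replicate order, the 6 platelet markers summed to 162 and 196 CPM, against 11.2 and 4.73 in WT, with none at 3 or fewer reads. The 6 macrophage markers summed to 61.5 and 37.6 against 4.18 and 4.62, with C1QA at 0, and the 8 erythroid markers to 2020 and 2490 against 94.2 and 15.4. Of the macrophage markers, CD68 read 19.7 and 18.0 CPM against 2.16 and 2.37, and CD14 read 0.572 and 0.236 against 0.206 and 0.323. The 6 endothelial markers summed to 165 and 287 against 443 and 345, and to 313 and 291 in WT stem cells at day 0. CDH5 went against that sum, at 13.2 and 22.3 CPM against 1.96 and 0.645 in WT, and 0.0534 and 0.131 in WT cells at day 0. The other endothelial markers are not given singly. In replicate 2, CD36 and the macrophage and hepatic sums were lower than in replicate 1. The platelet, erythroid, endothelial and cardiomyocyte sums were higher. These differences between single libraries were not tested. The 4 adipocyte markers with a row summed to between 1.67 and 1.80 against 0.67 and 0.86, with LEP at 3 or fewer reads. Their part in the CD36 difference was not tested. PPARA (118 and 65.3 CPM against 91.4 and 103) and ACADVL (390 and 307 against 249 and 242) were not called in NKX2-5 shRNA cells (adjusted p = 0.848 and 0.0714), though DESeq2 called ACADVL (log2 0.53, adjusted p = 0.0357). In ZEB2 shRNA cells ACADVL read 295 and 293 CPM, also above both WT libraries, and was not called by edgeR.

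The knockdown lines were also tested against each other, with 5 genes called between NKX2-5 and ZEB2 shRNA cells at day 6 (44.4% of all genes) and 7 between ZNF503 and ZEB2 shRNA cells (49.2%). Between NKX2-5 and ZNF503 shRNA cells at day 6, 2 were called (14.7%), CPT1B and ESRRG, both lower in NKX2-5 shRNA cells. FABP3 and PPARGC1A differed there by 0.27 ± 0.17 and -0.26 ± 0.17 (adjusted p = 0.301 and 0.311). For PPARGC1A, the difference of NKX2-5 from ZEB2 shRNA cells was -4.69 ± 0.17 at day 6 (adjusted p = 1.4e-09) and -3.55 ± 0.32 at day 10 (adjusted p = 0.00148). At day 10, 6 genes were called between these lines, against 21.3% of all genes. By the study's thresholds, 1, 2, 0 and 1 genes were called in these comparisons, taken in the order given, against 4.59%, 3.48%, 0.395% and 1.95% of all genes.

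**Figure D5:**
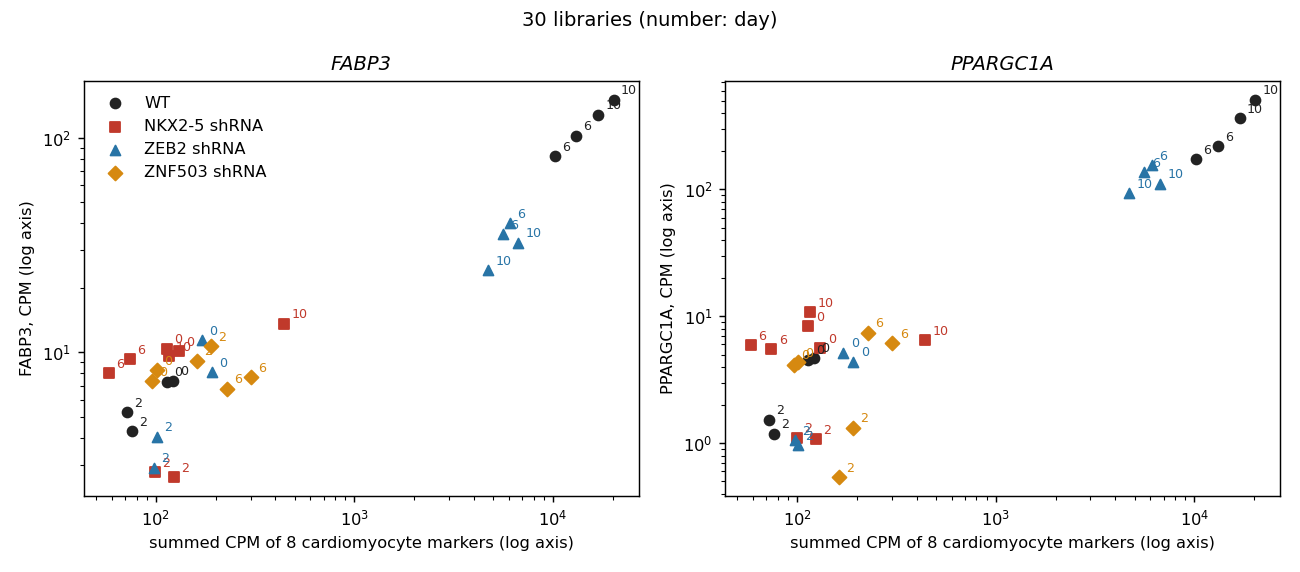
CPM of FABP3 and of PPARGC1A (vertical, log axis) against the summed CPM of the 8 cardiomyocyte markers (horizontal, log axis) in the 30 libraries, each marked with its day. WT and ZEB2 shRNA libraries of days 6 and 10 form the upper right group, with marker sums of 4710 to 20200, and all other libraries have sums of no more than 442 and no more than 13.6 CPM of FABP3.

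Across the 15 group means of log2(CPM + 1), FABP3 and PPARGC1A had a Pearson r of 0.95 and ACADVL and PPARA one of 0.96, the 2 highest among the 45 pairs. CPT1A and ESRRG had the lowest, -0.72. The points share lines and days, so these are descriptions. Among 17031 genes, those most similar to PPARGC1A were CMYA5 (r = 0.985), which encodes a striated muscle protein, and LNPK (0.984). CLIC5 (0.971), an intracellular chloride channel protein gene, was the most similar to FABP3. ADHFE1 and GSTK1 led for PPARA (both 0.98), FBRS (0.977) and TBC1D25 (0.975) for ACADVL, TRMT9B (0.976) and DCP1A (0.972) for ESRRG, and SNORD116-6 (0.978) and SEPTIN6 (0.964) for CPT1A. No gene reached 0.95 with CPT1B, CPT2, HADHA or CD36.

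The rest of the pathway was read from 7 lists of 55 other genes, 54 of which had a row. In WT cells, 29 of 52 tested were higher and 12 lower at day 6 than at day 0, and 34 were higher and 10 lower at day 10. Of all genes, 31.3% were higher and 29.6% lower at day 6, and 39.1% and 34.7% at day 10. Their median log2 change at day 10 was 1.15, against 0.10 for all genes. At day 10, 11 of the 14 genes of the β-oxidation spiral were higher and 1 lower, 3 of the 4 other carnitine shuttle genes were higher and 0 lower, and 7 of the 8 PPAR target genes were higher and 1 lower. PDK4, which slows the entry of glucose carbon into mitochondria, read 0 and 0.105 CPM at day 0 and 15.6 and 10.3 at day 10 (adjusted p = 1.8e-06). Among falls was FABP5, the epidermal fatty acid carrier, from 33.3 and 35.3 to 4.48 and 2.47 CPM (log2 -3.17 ± 0.22, adjusted p = 5.1e-07), so that the 2 carriers FABP3 and FABP5 moved in opposite directions. In the uptake and activation list, 4 of 9 tested were higher and 4 lower.

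At day 6 the β-oxidation spiral and the peroxisomal list had called genes in opposite directions in NKX2-5 and ZNF503 shRNA cells, a difference between lists that was not tested. Of the 14 genes of the spiral, 6 were lower and 0 higher in NKX2-5 shRNA cells and 8 were lower and 0 higher in ZNF503 shRNA cells, while of 5 peroxisomal genes 3 and 4 were higher and 0 lower. Of all genes, 24.7% and 28.5% were lower and 24.4% and 27.2% higher in these lines. The median log2 change was -0.23 and -0.39 for the spiral and 0.51 and 0.70 for the peroxisomal genes, against -0.00 and -0.03 for all genes. HADHB, the β subunit that pairs with HADHA, read 37.6 and 52.8 CPM in ZNF503 shRNA cells against 152 and 140 in WT (log2 -1.69 ± 0.16, adjusted p = 2.9e-06). EHHADH, the peroxisomal bifunctional enzyme, read 45.8 and 37.2 CPM in NKX2-5 shRNA cells against 7.50 and 11.0 (log2 2.15 ± 0.20, adjusted p = 3.4e-06). EHHADH is abundant in liver, and the hepatic markers summed to 10400 CPM in both of these NKX2-5 shRNA libraries and to 6520 and 6760 in the ZNF503 shRNA libraries, against 610 and 1340 in WT, and their part was not tested. ACSL1, which activates fatty acids to acyl-CoA, was lower in both, at log2 differences of -2.14 and -2.44. In ZEB2 shRNA cells 2 of the 50 genes tested were higher and 3 lower, against 5.67% and 5.33% of all genes.

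At day 10, 14 of 52 pathway genes were higher and 12 lower in NKX2-5 shRNA cells, and 5 were higher and 8 lower in ZEB2 shRNA cells. The shares of all genes were 23.3% higher and 20.6% lower in NKX2-5 shRNA and 10.6% and 7.67% in ZEB2 shRNA cells, so that the pathway counts in NKX2-5 shRNA cells lay near the background. SLC27A6, a fatty acid transport protein of heart, read 0.0954 and 1.94 CPM in NKX2-5 shRNA cells against 21.5 and 17.4 (log2 -4.25 ± 0.86, adjusted p = 0.00699). In ZEB2 shRNA cells, ACADM, HADHB, DECR1 and ETFDH of the spiral were lower and none was higher.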

How the data were processed

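Total RNA libraries (a stranded kit) of H1 cells gave the counts. The authors mapped reads to hg19 (GRCh37) with TopHat2 2.0.14, Bowtie2 2.2.1.0 and SAMtools 0.1.19.0, per the labels' processing notes, and counted them per RefSeq accession with RSeQC (strand setting not given in the sources used here). The deposited table thus holds unnormalized counts. The table has 41627 accessions, of which 40285 (96.8%) matched a symbol in RefSeq. In 4 columns, 1077 extra rows broke the match between values and accessions, so these libraries were left out after the data were seen. Totals over 1 row per gene were 9189943 to 90814577, and detection limits cover counting error only.

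The 10 members and all lists were chosen with earlier results of these data known. Counts were fitted with edgeR 4.0.16 in R 4.3.3 (filterByExpr, TMM, glmQLFit, glmQLFTest), one fit for each day with all its lines and one for the WT days. A call is a Benjamini-Hochberg adjusted p under 0.05 over all genes tested, two-sided, for 19 comparisons, 15 of which used libraries that share replicate numbers. CPM use TMM library sizes. Standard errors were obtained as |log2 fold change| over the root of F. The fit was run on counts simulated at the day 6 library sizes, with known folds in a small set of genes and the same spread for every gene. It therefore does not check the fit at the spread of the real libraries. Per-kilobase values divide CPM by the length of the canonical GENCODE transcript. Other genes were named by a fixed rule: the 2 largest rises and 2 largest falls among called pathway genes that averaged 1 CPM or more where higher, of which a part is printed, and the 2 genes most correlated with each member where r was at least 0.95. Some genes that this rule names are not reported here. Alternatives were DESeq2 1.42.0, no TMM factors, no filter, the next RefSeq row, 1 fit of all libraries, a replicate block, each library left out, and the study's thresholds (2-fold at 10% FDR at day 0, 4-fold at 10% at day 2, 8-fold at 1% at days 6 and 10). Same-numbered replicates did not deviate together (correlations from -0.0774 to 0.0337), so the numbers were not taken as pairs. The p-values and standard errors rest on the spread between libraries within groups, pooled over the groups of a fit and moderated across genes.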

Additional observations from a re-analysis of the deposited data

Results flagged for a closer look

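Each result below is a difference between 2 knockdown lines on the same day, so that the effects of 2 shRNAs against the shared WT libraries differed by a test of the difference itself (edgeR, adjusted over all genes). Values are log2 differences between lines with 2 libraries each. At day 6, NKX2-5 shRNA cells were lower than ZEB2 shRNA cells in PPARGC1A (-4.69), FABP3 (-2.13), CPT1A (-1.93) and CPT1B (-1.31), and higher in ESRRG (0.89). ZNF503 shRNA cells were lower than ZEB2 shRNA cells in PPARGC1A (-4.42), CD36 (-3.48), FABP3 (-2.40), CPT1A (-2.36) and HADHA (-0.41), and higher in ESRRG (1.54) and CPT1B (0.62). NKX2-5 shRNA cells were lower than ZNF503 shRNA cells in CPT1B (-1.92) and ESRRG (-0.65). The calls of CPT1B and HADHA between ZNF503 and ZEB2 shRNA cells were lost without ZNF503 shRNA replicate 1 or ZEB2 shRNA replicate 2, that of CD36 without ZEB2 shRNA replicate 1 (its value ranged from -8.43, without ZNF503 shRNA replicate 2, to -2.56), and that of ESRRG between NKX2-5 and ZNF503 shRNA cells without NKX2-5 shRNA replicate 2.

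At day 10, NKX2-5 shRNA cells were lower than ZEB2 shRNA cells in PPARGC1A (-3.55), CPT1A (-1.71), ESRRG (-1.47), FABP3 (-1.27) and CPT1B (-1.07), and higher in CD36 (2.97). For ESRRG, the knockdown of NKX2-5 thus stood above that of ZEB2 at day 6 and below it at day 10, a change between days that was not tested. Of the day 10 differences, CPT1B, FABP3, CD36 and ESRRG were not called without ZEB2 shRNA replicate 3 or 4. Groups of 2 libraries are too small to look for a sample that stands apart.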

How the results depend on the processing

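Log2 differences and calls were recomputed under each alternative. With the fold thresholds of the study, the members called from day 0 were 1, 4 and 5 at days 2, 6 and 10 in WT cells and 1 from day 6 to day 10. In the knockdowns they were 0 (ZNF503 shRNA, day 0), 1 and 0 (NKX2-5 and ZNF503 shRNA, day 2), 2, 0 and 2 (NKX2-5, ZEB2 and ZNF503 shRNA, day 6), and 3 and 0 (NKX2-5 and ZEB2 shRNA, day 10). Between lines they were 1 (NKX2-5 against ZEB2 shRNA), 2 (ZNF503 against ZEB2 shRNA) and 0 (NKX2-5 against ZNF503 shRNA) at day 6 and 1 at day 10. The thresholds are stricter by construction. The single call of ZNF503 shRNA cells at day 0 became 0 with the second RefSeq row, 1 fit of all libraries or the replicate block, and 2 with no filter or with DESeq2, and with no filter 4 members differed between NKX2-5 and ZNF503 shRNA cells at day 6. The cause was not tested.

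Leaving out 1 library, which also leaves fewer samples, gave 2 to 5 calls in NKX2-5, 1 to 2 in ZEB2 and 0 in ZNF503 shRNA cells at day 0, and 3 to 4 in ZNF503 shRNA cells at day 2 (5 with all libraries). It gave 4 to 5 in NKX2-5 and 2 to 3 in ZEB2 shRNA cells at day 6, 1 to 3 between NKX2-5 and ZNF503 shRNA cells, and 2 to 7 between NKX2-5 and ZEB2 shRNA cells at day 10. ZEB2 shRNA cells at day 10 gave 1 to 2 calls (5 with all libraries). In NKX2-5 shRNA cells, ESRRG at day 6 ranged from -0.07 to 0.21 and PPARA at day 10 from -0.57 to 0.29, changing sign. FABP3 and PPARGC1A stayed called lower at days 6 and 10 in NKX2-5 shRNA cells and at day 6 in ZNF503 shRNA cells under each alternative that could be fitted, the study's thresholds included. Without TMM scaling the median of all genes moved by 0.146 (WT, day 2 against day 0), -0.128 (NKX2-5 shRNA, day 2), 0.182 (ZEB2 shRNA, day 10) and -0.149 (NKX2-5 against ZEB2 shRNA, day 10).

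Over all genes, the calls moved by more than 1.5 times in these cases. With 1 fit of all libraries they went from 2681 to 1083 (NKX2-5 shRNA, day 0), 664 to 314 (ZEB2 shRNA, day 0), 1272 to 364 (ZNF503 shRNA, day 0), 4403 to 1935, 81 to 25 and 4443 to 2503 (NKX2-5, ZEB2 and ZNF503 shRNA, day 2), 3100 to 7674 (ZEB2 shRNA, day 10) and 3628 to 8710 (NKX2-5 against ZEB2 shRNA, day 10). In ZEB2 shRNA cells at days 0 and 2 they went to 1258 and 301 with no filter, to 1145 and 182 with DESeq2 and to 410 and 186 with the replicate block, and in ZNF503 shRNA cells at day 0 to 1965, 1955 and 698. The block gave 5040 in ZEB2 shRNA cells at day 10.

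The replicate block could be fitted in 15 comparisons, with the numbers only shared. It gave 8 members at day 2 and 9 at day 6 of the WT course, where HADHA became called. No paired analysis was possible for the day 10 contrasts of WT cells and of NKX2-5 shRNA cells because the libraries used share no replicate numbers. Depth limits CD36, with 0 to 37 reads in WT cells up to day 6.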

Other observations

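Control of CPT1 by malonyl-CoA and the second PGC-1 coactivator gave patterns the account above does not cover. ACACB, which makes the malonyl-CoA that blocks CPT1 at mitochondria, read 24.0 and 22.4 CPM in WT cells at day 6 and 265 and 287 at day 10 (log2 3.61 ± 0.18, adjusted p = 6.5e-07), so it rose over the same interval as CPT1A and CPT1B. In ZEB2 shRNA cells it was lower than WT on both days, at 15.2 and 12.8 CPM at day 6 (log2 -0.71 ± 0.18, adjusted p = 0.024) and 104 and 75.9 at day 10 (log2 -1.62 ± 0.33, adjusted p = 0.0163). ACACB was also called lower in NKX2-5 shRNA cells on both days and in ZNF503 shRNA cells at day 6. The rest of the malonyl-CoA list was MLYCD (malonyl-CoA decarboxylase) and ACACA. In WT cells MLYCD was also called higher at day 10 than at day 6, and ACACA was not called. Against day 0, MLYCD was called higher and ACACA lower at day 10. ACACA was called higher in NKX2-5 and ZNF503 shRNA cells at day 6. PPARGC1B, the relative of PPARGC1A, read 30.1 and 30.3 CPM in WT cells at day 0 and 1.82 and 3.20 at day 6 (log2 -3.52 ± 0.27, adjusted p = 2.1e-06), while PPARGC1A went from 4.56 and 4.71 to 220 and 173. At day 10 PPARGC1B was lower in ZEB2 shRNA cells, at 5.41 and 4.78 CPM against 19.3 and 28.1 in WT (log2 -2.22 ± 0.32, adjusted p = 0.0056), and it was called lower in NKX2-5 shRNA cells as well. The direction differed between days. In NKX2-5 shRNA cells PPARGC1B was called lower at day 0 and higher at day 6, and in ZNF503 shRNA cells it was called higher at day 2 (log2 1.23 ± 0.18). ESRRB, a relative of ESRRG, read 0.173 and 0.192 CPM in WT cells at day 6 and 5.88 and 3.33 at day 10 (log2 4.66 ± 0.52, adjusted p = 4.9e-05), and in NKX2-5 shRNA cells at day 10 it read 0.286 and 0 CPM (adjusted p = 0.00816).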
